A study of Homo sapiens with 4 samples.

Results

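The cytosolic ribosomal protein genes encode the proteins of the small (40S) and large (60S) subunits of the ribosome. They were followed across 4 single-cell RNA libraries of MSTO-211H, an established human pleural mesothelioma cell line. Members were the genes whose symbol is RPL or RPS followed by digits and by nothing, A or X, together with RPLP0, RPLP1, RPLP2 and RPSA. This rule used names and no measured value. It gave 77 genes of the 37468 features counted, 31 of the 40S and 46 of the 60S subunit, and all 77 passed the minimum of 20 CPM (counts scaled to the library total, defined below). Processed copies were left out, and RPSAP58 was read beside RPSA.

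QTP and irradiation were crossed, and each of the 4 groups was read as 1 library. Drug_Radiation received 10 µM QTP and 4 Gy, Drug received 10 µM QTP, Radiation received the vehicle and 4 Gy, and Control received the vehicle alone. All were labelled WT and were kept in suspension without serum, with a neuronal supplement, EGF, bFGF and heparin, on low-adhesion plastic. Cells were collected 48 h after irradiation, dissociated, pooled and fixed, so each library is a pool of cells of 1 line and 1 treatment.

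Ribosomal protein mRNAs are among the most abundant messages of a growing cell. Most begin with a 5′ terminal oligopyrimidine tract (TOP), a C at the first base followed by an unbroken run of pyrimidines, and growth signals through the kinase mTOR adjust their translation together. Their proteins are needed in equal numbers, 1 of each per subunit apart from the stalk proteins. RPL5 and RPL11, when free of ribosomes, bind the ubiquitin ligase MDM2 with 5S rRNA and so stabilise p53.

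The first bases are shown for members on which the results below turn. At the RefSeq start these bases hold the TOP that most of the family shares, or lack it there. Each sequence is 15 bases before and 15 bases from the RefSeq start of the gene (GRCh38.p14), on the strand of the gene, and capitals mark the unbroken pyrimidine run that begins at that start.
RPL34, chr4:108620561-108620590, plus strand: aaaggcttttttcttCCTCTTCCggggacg
RPL38, chr17:74203663-74203692, plus strand: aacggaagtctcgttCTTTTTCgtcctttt
RPL24, chr3:101686704-101686733, minus strand: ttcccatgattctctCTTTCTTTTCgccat
RPS14, chr5:150449725-150449754, minus strand: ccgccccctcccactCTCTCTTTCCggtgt
RPS6, chr9:19380222-19380251, minus strand: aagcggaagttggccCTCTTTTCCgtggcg
RPSA, chr3:39406705-39406734, plus strand: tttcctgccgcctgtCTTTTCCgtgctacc
RPS26, chr12:56041903-56041932, plus strand: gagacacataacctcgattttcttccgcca
RPL27, chr17:42998404-42998433, plus strand: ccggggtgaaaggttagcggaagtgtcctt
RPS29, chr14:49598696-49598725, minus strand: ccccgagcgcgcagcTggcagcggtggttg
The first 6 begin with a C and a run of 7 to 10 pyrimidines, whereas RPS26, RPL27 and RPS29 have no such run at the listed start.

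RefSeq promoters were matched for 62 of the 77 genes. A TOP of at least 5 pyrimidines stood at the listed start of 46 of these 62 (74.2%), against 1404 of 27305 genes in the table (5.14%). In the window of 250 bases before and 50 after the start, on either strand, the ETS motif CGGAAG was found in 64.5% of the members and 22.6% of all genes. The motif for YY1, AAGATGGC, was found in 9.68% and 3.52%, and the GC box GGGCGG in 58.1% and 48.3%. The TATA motif TATAAA was present in 8.06% of the members and 14.0% of all genes, and the E-box CACGTG in 6.45% and 8.77%. The family thus shared a pyrimidine start and ETS letters more often than genes at large, while the TATA letters were less frequent and the E-box differed by few genes (4 of 62 members). A match of letters is a description and not a measured binding site, and motifs were counted without regard to overlap with each other.

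Depth differed strongly with the treatment. The libraries held 6990 cells in Drug_Radiation, 3802 in Drug, 2425 in Radiation and 3183 in Control, with medians of 18024.5, 20405, 5299 and 2318 UMIs (counted molecules) per cell in that order. No cell barcode was shared by any pair of libraries, and mitochondrial UMIs were 3.26 to 5.20% of all. QTP, depth and any batch of library making therefore cannot be told apart by the design, and the libraries treated with QTP stand apart from the others in depth. Of 13 mesothelial and mesothelioma markers, 4 were at 20 CPM or more in each library. The keratin KRT18 was high (2696 to 2852 CPM) and the mesothelial calretinin gene CALB2 low (27.6 to 49.2), while mesothelin, MSLN, stayed between 8.27 and 14.0. Summed markers of fibroblasts (38.9 to 63.2), leukocytes (16.7 to 41.7), red cells (1.86 to 2.90) and endothelium (0.628 to 1.10) were low in all 4 libraries.

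Levels are given as CPM, the UMIs of a gene summed over cells and scaled to the nuclear-encoded total of its library. Because each UMI is meant to count a molecule once at its 3′ end, levels were not divided by length. A ratio is the log2 ratio of CPM plus 1 between libraries. There were no replicate libraries, so differences could not be set against a replicate spread and no test was made. Intervals at 95% cover counting error only. Sizes of 1.5-fold and 2-fold, and the median over all genes of at least 20 CPM in a compared library, serve as the background.

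Ribosomal protein mRNA made up a large part of every library. The 77 genes together held 31.7% of nuclear-encoded UMIs in Drug_Radiation, 27.6% in Drug, 32.7% in Radiation and 36.8% in Control. The 31 genes of the 40S subunit held 13.4% in Drug_Radiation, 11.4% in Drug, 13.2% in Radiation and 14.8% in Control. The 46 genes of the 60S subunit held 18.3%, 16.3%, 19.5% and 21.9% in the same libraries. Both subunits thus had their highest share in Control and their lowest in Drug.

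**Figure D1:**
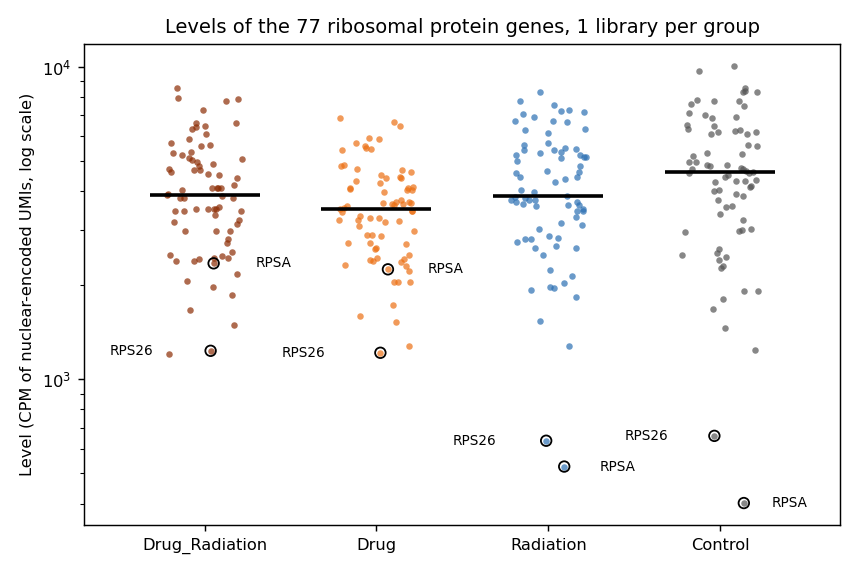
Level of each of the 77 ribosomal protein genes (log axis, CPM of nuclear-encoded UMIs) in the 4 libraries; each point is a gene, black bars are medians, and rings mark RPSA and RPS26. The medians are 3878 CPM in Drug_Radiation, 3503 in Drug, 3872 in Radiation and 4601 in Control, and only RPSA and RPS26 lie below 1000 CPM in any library.

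The members themselves spanned a wide range. In 75 of the 77, the level was at least 1000 CPM in every library. RPL37A, a zinc-binding protein of the 60S subunit, had the highest mean, with 8530 CPM in Drug_Radiation, 6640 in Drug, 8293 in Radiation and 9670 in Control. RPS29, a small zinc-binding 40S protein, had 7883, 5930, 7797 and 10073 CPM in the same order of libraries. RPS14, which lies on the platform of the 40S subunit and whose loss causes the anaemia of the 5q deletion, had 7765, 5710, 7520 and 7775 CPM. RPS18, in the head of the 40S subunit, had 7936, 6462, 6657 and 7013 CPM. All 4 of these genes were lowest in Drug, and RPS18 had its highest level in Drug_Radiation. At the low end RPS26 averaged 936 CPM and RPSA 1381 CPM, both with a pattern of their own described below. RPL22, which has the paralogue RPL22L1, had 1204 CPM in Drug_Radiation, 1277 in Drug, 1827 in Radiation and 1910 in Control.

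The order of the libraries was shared by many members. Of the 77 genes, 54 had their highest level in Control, 14 in Drug_Radiation, 9 in Radiation and 0 in Drug, while 57 had their lowest level in Drug. The complete order Control, Radiation, Drug_Radiation, Drug was seen in 33 genes, and a further 11 differed from it only by having Drug_Radiation above Radiation. Outside the list, 915 genes had at least 100 CPM in every library. The gene nearest to the members' median pattern was FAU, with a root mean square distance of 0.018 on the log2 scale over the 4 libraries. FAU encodes the 40S protein eS30 fused to a ubiquitin-like domain, and its symbol keeps it outside the rule. It had 1765 CPM in Drug_Radiation, 1586 in Drug, 1874 in Radiation and 2142 in Control. PVT1 (0.055), TMSB4X (0.062), CCN1 (0.069), SNHG5 (0.076) and NME2 (0.076) followed.

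The share was also taken cell by cell, since depth and treatment went together. The median cell gave 32.1% of its nuclear-encoded UMIs to the 77 genes in Drug_Radiation (quartiles 28.6 and 35.5%), 28.2% in Drug (24.6 and 31.9%), 33.3% in Radiation (29.8 and 36.9%) and 38.7% in Control (33.8 and 43.3%). Within each library deeper cells tended to a lower share. Across cells, Spearman's rho between the share and the UMIs of the cell was -0.14 in Drug_Radiation (6990 cells), -0.29 in Drug (3802), -0.26 in Radiation (2425) and -0.47 in Control (3183). The points share a library, and the UMIs are the denominator of the share, so these are descriptions.

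**Figure D2:**
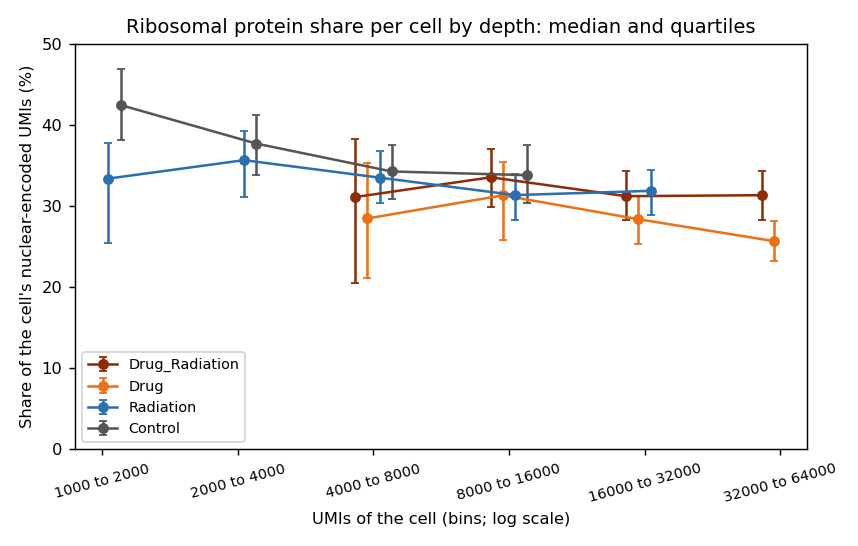
Median share of a cell's nuclear-encoded UMIs from the 77 genes (vertical axis, %) for cells binned by UMIs (horizontal axis, doubling bins) in the 4 libraries; bars are quartiles over cells, and bins of fewer than 20 cells are not drawn. Between 8000 and 16000 UMIs the medians are 33.5% in Drug_Radiation, 31.3% in Drug, 31.3% in Radiation and 33.8% in Control.

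At like depth the libraries lay closer together, as the plot of the share by depth shows. Among cells of 8000 to 16000 UMIs the median was 33.5% in Drug_Radiation (2580 cells), 31.3% in Drug (961), 31.3% in Radiation (497) and 33.8% in Control (72). These medians lay between 31.3 and 33.8%, whereas those over all cells lay between 28.2 and 38.7%. The bin lies above the median depth of Radiation and Control and below that of Drug_Radiation and Drug. It therefore sets the deeper cells of the former beside the shallower cells of the latter. In the deepest bin, 32000 to 64000 UMIs, only the libraries with QTP had cells, with 31.3% in Drug_Radiation (1086 cells) and 25.7% in Drug (693). Drug_Radiation lay above Drug in each of the 4 bins they shared, and Radiation lay below Control in each of the 4 bins they shared.

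Radiation without QTP went with slightly lower ribosomal protein levels. In Radiation against Control 61 of the 77 genes were lower and 16 higher, and their median ratio was -0.17, while the median over all 4818 genes was 0.18. No member passed 1.5-fold in either direction, when 14.8% of all genes were past that size upward and 3.45% downward. For 2-fold the shares of all genes were 2.18% and 0.872%, again with 0 members. The 40S and 60S genes had medians of -0.17 and -0.18. Relative to the median of all genes the members stood at -0.35, and 74 of the 77 lay below that median.

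RPL38, a 60S protein that in mice is needed for translation of certain Hox mRNAs, had 3600 CPM in Radiation and 4801 in Control, a ratio of -0.42 (95% counting interval -0.43 to -0.40). RPS27A, made as a fusion of ubiquitin with the 40S protein eS31, had 3606 CPM in Radiation and 4718 in Control, a ratio of -0.39. RPL35A and RPL34, both of the 60S subunit, had 4025 and 5453 CPM in Radiation and 5250 and 7095 CPM in Control, with ratios of -0.38 each. These were the lowest ratios of the family. At the other end stood RPSA, with 525 CPM in Radiation and 401 in Control, a ratio of 0.39 (0.33 to 0.45). RPL5 had 1966 CPM in Radiation and 1674 in Control, a ratio of 0.23 (0.20 to 0.26). RPS9, which helps keep decoding accurate, had 2631 CPM in Radiation and 2299 in Control, a ratio of 0.19. RPL29, also known as a heparin-binding protein, had 2145 and 1914 CPM, a ratio of 0.16. Among cells of 6500 to 15000 UMIs in each library the members' median in Radiation against Control was -0.08 and that of all genes 0.07. RPL38 then had a ratio of -0.21, RPSA 0.29 and RPL5 0.13.

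Radiation in the presence of QTP went with higher levels. In Drug_Radiation against Drug 69 of the 77 genes were higher and 8 lower, with a median ratio of 0.17, while the median over 5570 genes was -0.18. All 77 members lay above the median of all genes. A single member, RPS2, was 1.5-fold higher and 0 were 1.5-fold lower, against 0.844% and 2.39% of all genes. All 31 genes of the 40S subunit were higher, with a median of 0.19, and 38 of the 46 genes of the 60S subunit were, with a median of 0.15.

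RPS2, a 40S protein at the entry of the mRNA channel, had 2729 CPM in Drug_Radiation and 1597 in Drug, a ratio of 0.77 (0.76 to 0.78). Its levels in Radiation (1534 CPM) and Control (1458 CPM) were close to that in Drug, so Drug_Radiation alone stood out. RPS14 followed with 7765 CPM in Drug_Radiation and 5710 in Drug, a ratio of 0.44. RPS29 had 7883 and 5930 CPM, a ratio of 0.41, and RPS27, another zinc-binding 40S protein, had 5121 and 3980 CPM, a ratio of 0.36. The 4 highest ratios were all of 40S genes. The 4 lowest were all of 60S genes. RPL6 had 2174 CPM in Drug_Radiation and 2439 in Drug, a ratio of -0.17. RPL21 had 1859 and 2053 CPM, a ratio of -0.14, while RPL22 had a ratio of -0.08 and RPL7 one of -0.07, with 2394 CPM in Drug_Radiation and 2505 in Drug for RPL7. Among cells of 6500 to 15000 UMIs the members' median was 0.08 and that of all genes -0.15, and RPS2 kept a ratio of 0.72.

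**Figure D3:**
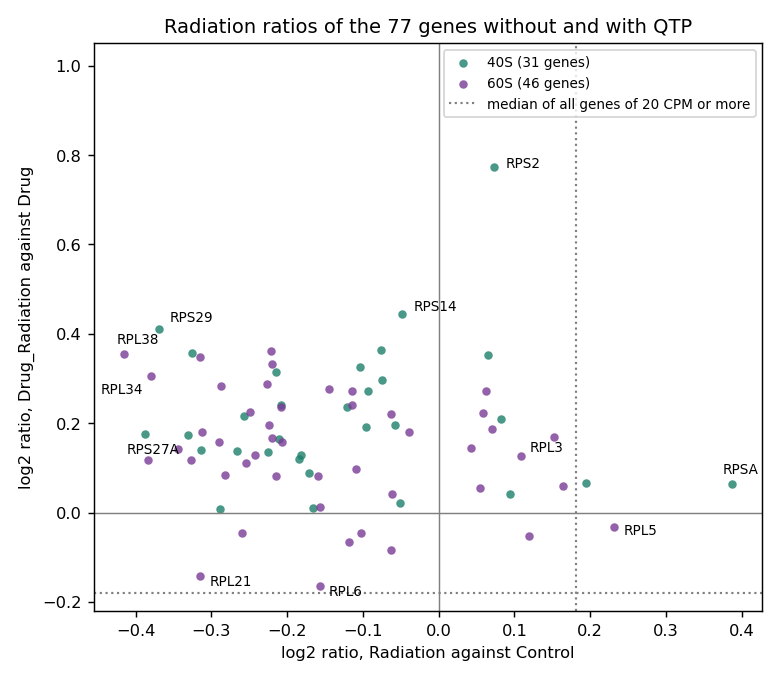
Log2 ratio of each of the 77 genes in Drug_Radiation against Drug (vertical axis) and in Radiation against Control (horizontal axis), coloured by subunit; dotted lines are the medians of all genes of 20 CPM or more, -0.18 on the vertical and 0.18 on the horizontal axis. Most points (55 of 77) lie at the upper left, lower with radiation alone and higher with radiation in the presence of QTP.

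The radiation ratios thus lay on opposite sides of 0 in the libraries with and without QTP for most members. In 55 of the 77 genes the level was higher in Drug_Radiation than in Drug and lower in Radiation than in Control. The median of the per-gene difference of the radiation ratios, with minus without QTP, was 0.36. RPS29 had the largest difference, 0.78, followed by RPL38 with 0.77, RPS2 with 0.70 and RPL34 with 0.69. RPSA (-0.32), RPL5 (-0.26), RPL4 (-0.17) and RPS9 (-0.13) had the lowest. RPL4, a long 60S protein that lines the exit tunnel, had 1664 CPM in Drug_Radiation, 1725 in Drug, 1965 in Radiation and 1809 in Control. Which member ranked high in one arm said little about the other. The radiation ratios with and without QTP, which share no library, had Spearman's rho of -0.15 and Pearson's r of -0.11 across the 77 genes. The nuclear RNAs MALAT1 and NEAT1 went the other way: summed, they had 787 CPM in Drug_Radiation and 1215 in Drug, and 1439.6 in Radiation and 939.9 in Control. Mitochondrial UMIs were 5.20% in Drug_Radiation and 4.08% in Drug, and 3.55% in Radiation and 3.26% in Control. The part of either in the radiation ratios was not tested.

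QTP without radiation went with the lowest levels. In Drug against Control 70 of the 77 genes were lower and 7 higher, with a median ratio of -0.42, while the median over 5546 genes was 0.50. Of the members, 19 were 1.5-fold lower, when 3.21% of all genes were, and 3 were 1.5-fold higher, when 40.1% of all genes were. The 40S genes had a median of -0.40 and the 60S genes one of -0.42. Relative to the median of all genes the members stood at -0.92. These 2 libraries differed most in depth. Among cells of 6500 to 15000 UMIs the members' median was -0.13 against 0.24 for all genes, and 0 members were then 1.5-fold lower.

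RPL27, a 60S protein, had 4618 CPM in Drug and 8574 in Control, a ratio of -0.89 (-0.90 to -0.88). RPL34 had 4104 CPM in Drug and 7095 in Control, a ratio of -0.79. RPL24, which forms a bridge between the subunits, had 2418 CPM in Drug and 4146 in Control, a ratio of -0.78, and RPS29 one of -0.76. None of the members was 2-fold lower, when 2.34% of all genes were. In the cells of 6500 to 15000 UMIs RPL24 had -0.51, RPL27 -0.44, RPL34 -0.37 and RPS29 -0.21. RPS6, the substrate of the S6 kinases downstream of mTOR, had 4408 CPM in Drug and 6894 in Control, a ratio of -0.65.

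At the upper end RPSA had 2248 CPM in Drug and 401 in Control, a ratio of 2.48 (2.44 to 2.53), and was the only member past 2-fold, when 8.6% of all genes were 2-fold higher. RPS26, at the exit of the mRNA channel and often mutated in Diamond-Blackfan anaemia, had 1215 CPM in Drug and 659 in Control, a ratio of 0.88 (0.85 to 0.92). Both therefore went the other way from most of the family, and their ratios kept most of their size at closer depth. Among cells of 6500 to 15000 UMIs RPSA had 2.23 and RPS26 0.89. RPL29 also stood on this side, with 2298 CPM in Drug and 1914 in Control, a ratio of 0.26.

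QTP on top of radiation went with smaller differences. In Drug_Radiation against Radiation 48 of the 77 genes were lower and 29 higher, with a median ratio of -0.06, while the median over 5239 genes was 0.13, and the members' median was 0.05 among cells of 6500 to 15000 UMIs. There were 4 members 1.5-fold higher, RPSA, RPS26 and RPS2 among them, when 8.09% of all genes were, and the 2 that were 1.5-fold lower were RPL14 and RPL22, when 2.29% of all genes were. RPSA was also 2-fold higher, when 1.15% of all genes were, and 0 members were 2-fold lower, when 1.6% were. The 40S genes had a median of 0.02 and the 60S genes one of -0.11. RPSA had 2349 CPM in Drug_Radiation and 525 in Radiation, a ratio of 2.16 (2.13 to 2.19). RPS26 had 1233 and 636 CPM, a ratio of 0.96, and RPS2 had a ratio of 0.83. RPL14, a 60S protein, had 1977 CPM in Drug_Radiation and 3018 in Radiation, a ratio of -0.61. RPL22 had a ratio of -0.60, RPL24 one of -0.48 and RPL17, which lines the exit tunnel, one of -0.41, with 3497 CPM in Drug_Radiation and 4656 in Radiation for RPL17.

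The ratios for QTP were partly alike in rank with and without radiation. These comparisons, Drug_Radiation against Radiation and Drug against Control, share no library. Across the 77 genes Spearman's rho was 0.56 and Pearson's r 0.85, and without RPSA they were 0.54 and 0.72. QTP went with a lower level in both arms in 47 genes and with a higher one in both in 6. Both arms paired a deep library with a shallower one, so what the points share includes depth. In Drug_Radiation against Control, where both treatments differed, 61 of the 77 genes were lower, with a median of -0.23 against 0.33 over all genes. There 4 members were 1.5-fold higher, when 25.7% of all genes were, and 5 were 1.5-fold lower, when 3.6% were. For 2-fold the shares of all genes were 5.36% higher and 2.42% lower, with 1 and 0 members. Among the 4 were again RPSA (2.55), RPS2 (0.90) and RPS26 (0.90), and the lowest were RPL14 (-0.71), RPL24 (-0.70), RPL17 (-0.67) and RPL22 (-0.67).

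RPSA is the 40S protein uS2, also described as a laminin receptor precursor. It stands on chromosome 3 (GRCh38, chr3:39406689-39412542, plus strand, GENCODE 29). Its copy RPSAP58 lies on chromosome 19. GENCODE 29 gives the copy as a processed pseudogene at chr19:23827162-23828049, and RefSeq gives a protein-coding gene RPSA2 with that synonym over chr19:23758496-23871188. The counted RPSAP58 has an identifier that is not in GENCODE 29. The sequence below was matched to it by name, so the gene model that was counted may differ. Over the 885 coding bases of RPSA the copy is the same at 881 (99.5%), with the substitutions G108C, A192T, C349T and G703T, counted from 1 at the first coding base, the base of RPSA first. After the last of these, 182 coding bases follow with none. The stretch around that last difference, coding bases 673 to 732 of RPSA and chr19:23827834-23827893 of the copy, shows how little separates the pair, and the capital marks the base that differs.
RPSA: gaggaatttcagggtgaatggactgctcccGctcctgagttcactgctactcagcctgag
RPSAP58: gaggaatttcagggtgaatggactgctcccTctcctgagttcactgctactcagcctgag

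The UMIs listed under these symbols moved in opposite directions with QTP, and their sum hardly differed. RPSA had 332694 UMIs in Drug_Radiation, 196023 in Drug, 7529 in Radiation and 3592 in Control. RPSAP58 had 65313, 42122, 33282 and 23657 UMIs in the same libraries, or 461, 483, 2322 and 2644 CPM. Summed, the pair had 2811 CPM in Drug_Radiation, 2731 in Drug, 2848 in Radiation and 3045 in Control. The ratio of the sum was -0.16 in Drug against Control and -0.02 in Drug_Radiation against Radiation, where RPSA alone had 2.48 and 2.16. RPSA was 83.6% of the pair in Drug_Radiation (exact 95% interval 83.5 to 83.7%), 82.3% in Drug (82.2 to 82.5%), 18.4% in Radiation (18.1 to 18.8%) and 13.2% in Control (12.8 to 13.6%). With so few differing bases the UMIs of RPSA and RPSAP58 are uncertain between the pair, and whether the RNA or its assignment differed was not tested.

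**Figure D4:**
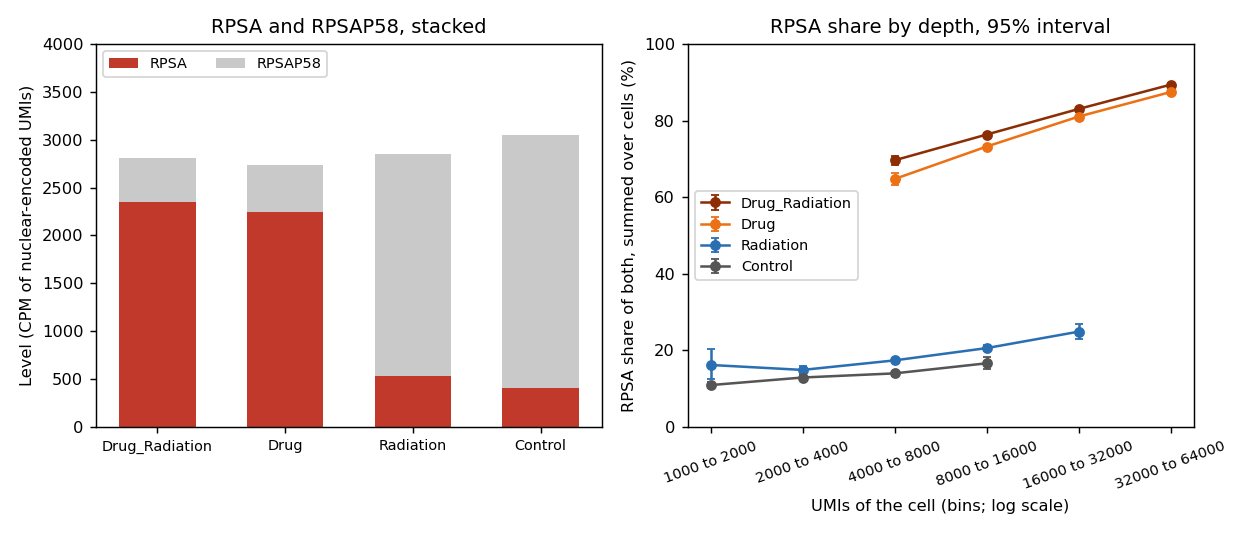
Left, levels of RPSA (red) and RPSAP58 (grey) stacked for the 4 libraries (CPM); right, RPSA as a share of the UMIs of both (%) for cells binned by UMIs, summed over the cells of a bin, with exact 95% intervals. The stacks reach 2731 to 3045 CPM, and the share climbs with depth in both libraries with QTP, from 69.6 to 89.4% in Drug_Radiation and from 64.7 to 87.4% in Drug.

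The share of RPSA also went with the depth of the cell inside a library. In Drug_Radiation it was 69.6% in cells of 4000 to 8000 UMIs and 89.4% in cells of 32000 to 64000, and in Drug 64.7% and 87.4% in the same bins. In Radiation it was 16.1% in cells of 1000 to 2000 UMIs (80 cells), 14.8% in cells of 2000 to 4000 and 24.8% in cells of 16000 to 32000, and in Control 10.9% in cells of 1000 to 2000 and 16.6% in cells of 8000 to 16000. The groups remained apart at like depth. Between 8000 and 16000 UMIs the share was 76.3% in Drug_Radiation, 73.2% in Drug, 20.5% in Radiation and 16.6% in Control.

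Similarity to other genes was then taken for all members. Every run of 50 bases in the last 300 coding bases of a member was looked for in the transcripts of other genes in GENCODE 29. In 22 of the 77 genes at least 80% of these runs occurred elsewhere, for RPS26 all of them (in 25 other genes), for RPS2 83.7% (22 genes) and for RPSA 80.5% (27 genes). All 4 members that were 1.5-fold higher in any comparison were among these 22, whereas 2 of the 19 that were 1.5-fold lower in Drug against Control were. Apart from RPSAP58 the files named 1 further copy of a member, RPS27AP5, so reads of other copies could not be followed. In 5 members, RPL18, RPL27, RPL38, RPLP2 and RPS14, no such run occurred elsewhere. Their median was 0.35 in Drug_Radiation against Drug and -0.45 in Drug against Control; the part of shared sequence in the ratios was not tested.

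Single members that stood apart were set beside 991 genes of at least 100 CPM in every library. ATP5MC1, a subunit of the mitochondrial ATP synthase, was among the nearest to RPS26, at a root mean square distance of 0.124 on the log2 scale over the 4 libraries. RPSA was far from every gene, PHPT1 being the nearest at 0.461, with 413 CPM in Drug_Radiation, 391.8 in Drug, 174 in Radiation and 133 in Control. The nearest to RPS2 was SEZ6L2 at 0.116, with 258 CPM in Drug_Radiation, 168 in Drug, 160 in Radiation and 126 in Control.

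RPS2 lies at chr16:1962052-1964860 on the minus strand, and SNHG9, a host gene of a small nucleolar RNA, starts 98 bases away on the plus strand (chr16:1964959-1965509). SNHG9 had 149 CPM in Drug_Radiation, 92.9 in Drug, 79.4 in Radiation and 83.6 in Control. Its ratio was 0.68 in Drug_Radiation against Drug, where RPS2 had 0.77, and 0.90 in Drug_Radiation against Radiation, where RPS2 had 0.83. Both neighbours were thus high in Drug_Radiation alone. The pairing of this neighbour with RPS2 was made after its values were seen.

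The ratios varied with the length of the gene, in a direction that differed between comparisons. The coding lengths ran from 75 bases in RPL41 to 1281 in RPL4. The 25 shortest genes (up to 399 bases) had a median of -0.22 in Radiation against Control, 0.24 in Drug_Radiation against Drug and -0.57 in Drug against Control. The 25 longest (582 bases or more) had -0.06, 0.09 and -0.15 in the same comparisons. In Drug_Radiation against Radiation the longest genes differed more, with -0.11 against -0.02 in the shortest. Across the 77 genes Spearman's rho between coding length and the ratio was 0.56 in Radiation against Control, -0.50 in Drug_Radiation against Drug and 0.47 in Drug against Control. In the other genes of 20 CPM or more it was 0.19, 0.15 and 0.17, so in Drug_Radiation against Drug the members had the opposite sign. In Drug_Radiation against Radiation it was -0.22 in the members and 0.14 in the other genes. The members share their libraries, and short members also had higher levels (rho -0.39 between length and mean CPM). Between mean CPM and the ratio, rho was -0.36 in Radiation against Control and 0.64 in Drug_Radiation against Drug. It was -0.55 in Drug against Control and -0.07 in Drug_Radiation against Radiation. The parts of length and of level in the ratios were not tested.

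**Figure D5:**
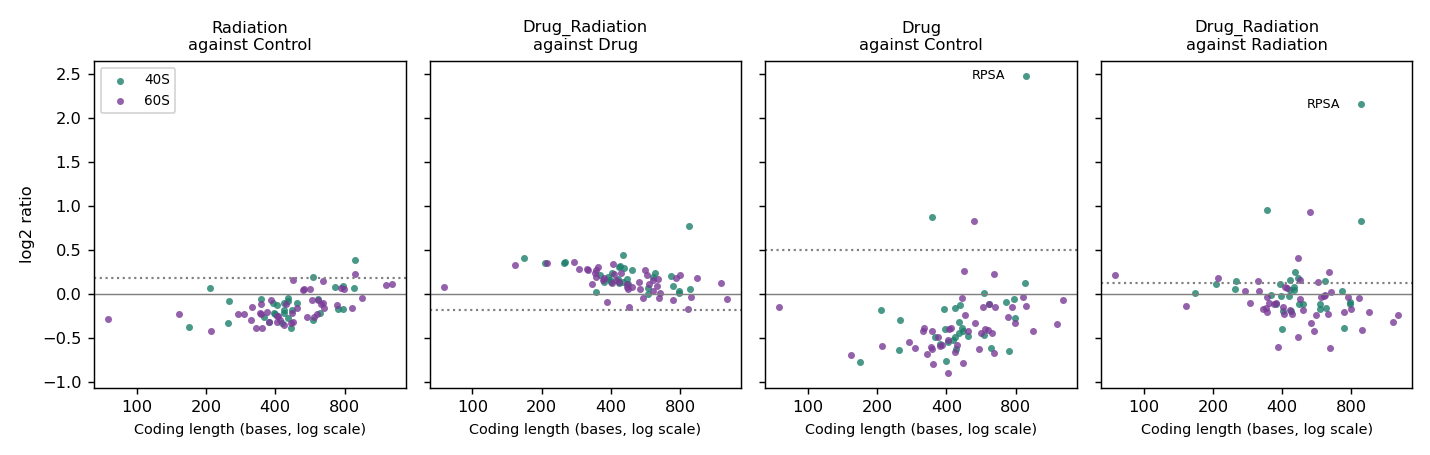
Log2 ratio of each of the 77 genes (vertical axis) against its coding length (bases, log axis) in 4 comparisons, coloured by subunit; dotted lines are the medians of all genes of 20 CPM or more. The 25 shortest genes have a lower median than the 25 longest in Radiation against Control and in Drug against Control. Their median is higher in Drug_Radiation against Drug, although the highest single gene there, RPS2, is a long one. RPSA stands far above the rest in both comparisons of QTP.

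Other genes with coding sequences as short as those of the 25 shortest members had medians of -0.04 in Radiation against Control (422 genes), -0.18 in Drug_Radiation against Drug (435) and 0.27 in Drug against Control (438). RPL41, which encodes a peptide of 25 residues, had 7290 CPM in Drug_Radiation, 6875 in Drug, 6268 in Radiation and 7619 in Control. Its ratio was nearer to 0 than the median of the 25 shortest genes in Drug_Radiation against Drug (0.08) and in Drug against Control (-0.15), and further from 0 in Radiation against Control (-0.28).

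Members with special places in the ribosome were read next. The stalk proteins recruit elongation factors. RPLP0, their base, had 6320 CPM in Drug_Radiation, 5580 in Drug, 7278 in Radiation and 7482 in Control. RPLP1 had 6440, 5466, 7188 and 8304 CPM and RPLP2 had 4171, 3452, 4273 and 4628 CPM in the same order. All 3 were lower in Radiation than in Control, higher in Drug_Radiation than in Drug and lower with QTP in both arms. RPL11, the partner of RPL5 on MDM2, had 2492 CPM in Drug_Radiation, 2398 in Drug, 3128 in Radiation and 3012 in Control. RPL5 had 1487, 1521, 1966 and 1674 CPM. Unlike most of the family, the pair was higher in Radiation than in Control, with ratios of 0.23 for RPL5 and 0.05 for RPL11, and both were lower in each library with QTP. In the band of cells at closer depth used above, the Radiation against Control ratios were 0.13 for RPL5 and -0.01 for RPL11. RPL5 thus kept its sign there and RPL11 did not. MDM2 itself had 108 CPM in Drug_Radiation, 73.6 in Drug, 88.9 in Radiation and 58.9 in Control.

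Other members with roles known outside the ribosome or at its active sites varied in the same range. RPL3, which reaches the peptidyl transferase centre, had 4090 CPM in Drug_Radiation, 3750 in Drug, 5100 in Radiation and 4732 in Control. RPS3, which also takes part in DNA repair, had 4669, 4040, 4558 and 4305 CPM. RPL13A, which can leave the ribosome to repress translation of inflammatory mRNAs, had 6598, 5876, 6704 and 7810 CPM. RPL13A was highest in Control, RPL3 in Radiation and RPS3 in Drug_Radiation, so no common order was seen here. Among the X-linked members RPL10, among the last proteins to join the 60S subunit, was higher in every library with QTP, with 3356 CPM in Drug_Radiation, 2985 in Drug, 2819 in Radiation and 2537 in Control. RPS4X differed little, with 2445, 2378, 2633 and 2467 CPM. The other X-linked members were lower in Drug than in Control, RPL39 with a ratio of -0.69 and RPL36A with one of -0.39.

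Paralogues and fusion genes outside the rule were read beside the members. RPS27L, a p53 target and paralogue of RPS27, had 1643 CPM in Drug_Radiation, 1205 in Drug, 1540 in Radiation and 1696 in Control, and its ratio of 0.45 in Drug_Radiation against Drug was above that of RPS27, 0.36. RPL22L1 had 855, 907, 994 and 1213 CPM and RPL36AL had 921, 1020, 1084 and 1310 CPM. Both were thus lowest in Drug_Radiation. RPL26L1 (136 to 188 CPM) and RPL7L1 (86.2 to 133 CPM) were low, and RPL39L stayed below 1 CPM. Of the 7 genes of this list at 20 CPM or more, 6 were lower in Drug than in Control, with a median of -0.36.

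In Drug against Control and in Drug_Radiation against Drug, other parts of the translation machinery did not share the family's ratios, apart from the other TOP mRNAs in part. In Drug_Radiation against Radiation the assembly factors (-0.06) and initiation factors (-0.02) had medians near the members' -0.06. The elongation and release factors (0.03) and mitochondrial ribosomal proteins (0.05) were on the other side of 0 there. The 15 other TOP mRNAs had a median of -0.14 in Drug against Control, and all 15 lay below the median of all genes. Their median was 0.04 in Drug_Radiation against Drug and 0.02 in Radiation against Control. This list held FAU, itself a ribosomal protein gene, and left out EEF2 and EEF1G, TOP mRNAs read with the elongation factors. EEF2 had 1.12 and EEF1G 1.01 in Drug against Control, above the median of all genes. That all 15 lay below it thus depends on how the list was drawn. PABPC1, the poly(A)-binding protein, was the extreme of the list with 2812 CPM in Drug_Radiation, 1460 in Drug, 2168 in Radiation and 2978 in Control. Its ratios of 0.95 in Drug_Radiation against Drug and -1.03 in Drug against Control had the family's signs and a larger size. NPM1, the nucleolar chaperone, went the other way with 1743, 1870, 1773 and 1427 CPM.

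The 10 elongation and release factors had medians of 0.35 in Drug against Control and -0.15 in Drug_Radiation against Drug. EEF2, the translocase, had 990 CPM in Drug_Radiation, 1074 in Drug, 1071 in Radiation and 493 in Control, and EEF1G had 1865, 1891, 1542 and 941 CPM. Both are known TOP mRNAs but were lowest in Control, where most ribosomal protein genes were highest. EEF1A1, the most abundant of the list, had 14530, 12557, 15421 and 12090 CPM. Initiation factors had a median of 0.54 in Drug against Control (33 genes) and assembly factors one of 0.58 (33), close to the 0.50 of all genes. EIF3C, a subunit of the initiation factor eIF3, had a ratio of 1.39 and the rRNA methyltransferase gene NOP2 one of 1.22. In Drug_Radiation against Drug the same lists had medians of -0.23 (34 genes) and -0.28 (34), so here too they did not share the sign of the ribosomal proteins. Fibrillarin, FBL, had the lowest mean ratio among the assembly factors, with 74.8 CPM in Drug_Radiation, 102 in Drug, 59.9 in Radiation and 133 in Control.

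The ribosome of mitochondria is made from a separate set of nuclear genes. Of 75 such genes, 74 were at 20 CPM or more, with medians of 0.32 in Drug against Control, -0.25 in Drug_Radiation against Drug and -0.01 in Radiation against Control. In Drug_Radiation against Drug 70 of these 74 were lower, when 69 of the 77 cytosolic genes were higher. MRPL2 had 58.1 CPM in Drug_Radiation, 67.6 in Drug, 38.1 in Radiation and 29.1 in Control, and MRPL34 had 54.8, 76.8, 54.1 and 85.8 CPM. Short mRNAs of oxidative phosphorylation, 35 genes, had medians of -0.31 in Radiation against Control, -0.09 in Drug_Radiation against Drug and 0.12 in Drug against Control. With radiation alone they stood below the ribosomal proteins (-0.17), and 34 of the 35 were lower. ATP5F1E, a small subunit of the ATP synthase, had 1369 CPM in Drug_Radiation, 1351 in Drug, 1341 in Radiation and 1873 in Control.

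Host genes of small nucleolar RNAs, many of which begin with a TOP, had a median of 0.30 in Drug against Control and -0.02 in Drug_Radiation against Drug (15 genes). SNHG5 had 315 CPM in Drug_Radiation, 321 in Drug, 352 in Radiation and 395 in Control, a pattern near that of the members, whereas SNHG1 had 82.8, 83.1, 63.8 and 50.6 CPM. Of 13 kinases, phosphatases and regulators of translation, 6 reached 20 CPM in Drug against Control, with a median of 0.37. Among them MYC, a transcription factor that raises ribosome production, had 334 CPM in Drug_Radiation, 442 in Drug, 541 in Radiation and 335 in Control. The MYC ratio was 0.69 in Radiation against Control and -0.40 in Drug_Radiation against Drug, in both arms of opposite sign to the members' medians of -0.17 and 0.17.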

How the data were processed

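The authors deposited unnormalized UMI counts, and these were the values used. A 3′ kit of the PIPseq V T2 type is given per the labels' protocols, but a further label text states 10x Genomics, which leaves the chemistry unsettled. The submitters' processing notes list Seurat 4.3.3 and the build hg38. How reads were aligned, counted by strand and shared between genes they match equally is not stated there. Barcodes had been filtered before deposit, with lowest totals of 6244 UMIs in Drug_Radiation, 6427 in Drug, 1592 in Radiation and 1009 in Control.

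Cells with at least 500 UMIs, at least 300 genes and under 20% mitochondrial UMIs were kept. Doublets were neither called nor removed. Counts were summed over cells and scaled to the nuclear-encoded total, 141608005 in Drug_Radiation, 87195885 in Drug, 14331904 in Radiation and 8948054 in Control. The log2 ratios used 1 CPM as pseudocount. Exact 95% intervals were conditional binomial for ratios and Clopper-Pearson for shares, cover counting error only, and were tested on simulated data. Python 3.11.15, numpy 2.4.6, scipy 1.17.1, pandas 2.3.3 and R 4.3.3 with edgeR 4.0.16 (TMM scaling only) were used. Each group had 1 library, so no test was made.

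Alternatives were TMM scaling, a total without the members, a stricter cell filter, cells of 6500 to 15000 UMIs, equal weight per cell, a pseudocount of 5 CPM, no minimum of 20 CPM, members summed with named copies and, added after seeing the data, leaving out RPSA. Sequences are from RefSeq (GRCh38.p14) or GENCODE 29. Members and lists were chosen with earlier results of these data known. The short oxidative phosphorylation list, the bins of RPSA by depth, the split by similarity to other genes and SNHG9 were added after the values were seen. Named members were the 4 highest and 4 lowest by level, by each ratio and by the difference of the radiation ratios, with members of known special roles; some genes that the rules name are not reported here. From each list up to 4 genes of extreme mean ratio were taken as a pool for examples.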

Additional observations from a re-analysis of the deposited data

Results flagged for a closer look

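The difference between the radiation ratios with and without QTP is the result most in need of a closer look. The median ratio of the 77 ribosomal protein genes was 0.17 in Drug_Radiation against Drug and -0.17 in Radiation against Control, a difference of 0.333 that has opposite signs in the arms. It was not tested, since each arm holds 1 library per group. Single members moved apart in the same untested way: RPS29 differed by 0.780, RPL38 by 0.770 and RPL34 by 0.686, each higher in Drug_Radiation than in Drug and lower in Radiation than in Control. RPL5 differed by -0.265 and RPL4 by -0.171, each lower in Drug_Radiation than in Drug and higher in Radiation than in Control. Among cells of 6500 to 15000 UMIs the medians were 0.08 in Drug_Radiation against Drug and -0.08 in Radiation against Control. RPS29, RPL38, RPL34 and RPL5 kept their signs in these cells. RPL4 did not, with 0.005 in Drug_Radiation against Drug and -0.022 in Radiation against Control.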

How the results depend on the processing

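No paired analysis was possible because each group holds 1 library and the labels give no replicate numbers. Scaling moved the median of all genes: with TMM it was 0.10 in Drug against Control, against 0.50 with totals. Relative to it the members kept -0.91 with TMM, against -0.92. With TMM the members' median was -0.25 in Radiation against Control, 0.35 in Drug_Radiation against Drug (3 past 1.5-fold), -0.81 in Drug against Control (55), -0.19 in Drug_Radiation against Radiation and -0.45 in Drug_Radiation against Control (22). With a total that left the members out these were -0.26, 0.25, -0.61 (46), -0.080 and -0.34 (14). In cells of 6500 to 15000 UMIs they were -0.077, 0.084, -0.13 (3), 0.053 and -0.059 (5), so the sign turned for Drug_Radiation against Radiation. With equal weight per cell they were -0.20, 0.14 and, in Drug_Radiation against Control, -0.28. With the stricter cell filter they were -0.40 in Drug against Control and -0.21 in Drug_Radiation against Control. Summed with its named copy, RPSA turned from 2.48 to -0.16 in Drug against Control, from 2.16 to -0.019 in Drug_Radiation against Radiation and from 2.55 to -0.12 in Drug_Radiation against Control, since the sum counts RPSAP58 too. Of 1615 values of single members under the alternatives, 1536 kept their sign and 900 lay within the counting interval. Some alternatives, such as no minimum of 20 CPM or leaving out RPSA, cannot change the ratio of another member. The kept signs are therefore in part fixed in advance and do not measure robustness. The band of 6500 to 15000 UMIs narrowed the difference in depth without removing it. Median UMIs per cell within it were 11462 in Drug_Radiation, 10833 in Drug, 8566 in Radiation and 7775 in Control. Control had 173 cells there. For the other medians the cause of a move was not tested.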
